A study of Mus musculus with 22 samples.

Results

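The 10 genes described here mark the heart muscle of the pulmonary veins in mouse lung and were chosen by name from a table of 22520 genes: 4 that are mainly atrial in the heart (Myl7, Myl4, Nppa and Sln) and 6 that atria and ventricles share (Myh6, Actc1, Tnnt2, Tnni3, Ryr2 and Pln). All 10 had a row in the table, and all 10 passed the filter on low values (at least 1 in at least 2 libraries), as did 14200 genes in all. In the mouse, heart muscle does not end at the heart: a sleeve of striated cardiomyocytes runs along the pulmonary veins into the lung, so whole lung RNA can hold transcripts of cardiac contractile genes. These cells build their sarcomere from cardiac myosin, actin and troponin, and release and take up calcium through the sarcoplasmic reticulum as atrial muscle does.

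The study examined polyA RNA of neonatal mouse lung, from males and females that the labels place in room air or in hyperoxia, collected on postnatal day 7 or 21 (PND7, PND21). There were 2 libraries of males in room air at PND7, 3 of females in room air at PND7, 3 of males in hyperoxia at PND7 and 2 of females in hyperoxia at PND7. At PND21 each of the 4 combinations of sex and oxygen had 3 libraries, which gives 22 in all. RA and HO stand for room air and hyperoxia in the group names. The labels used here give no strain, oxygen fraction or length of exposure, and do not say which part of the lung, or how much of its hilum and large veins, was taken. They also do not say that each library is a separate animal, so the p-values measure the spread between these samples, which may be technical.

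Values are FPKM (fragments scaled by transcript length and library size) after quantile normalization, so that the libraries have almost equal distributions. Column totals were 529406 to 533090, and the sequencing depth is unknown. In bulk lung, fewer cardiomyocytes and less RNA per cardiomyocyte cannot be told apart. Krt13 (a keratin of squamous linings such as the oesophagus) was 140 to 1534 in 6 libraries and no higher than 35.9 in the other 16. The 18 skeletal muscle markers summed to 215 to 3066 in the same 6 libraries and to 10.1 to 62.7 in the 16. In room air at PND7 these were Male_RA_PND7 replicate 2 and Female_RA_PND7 replicate 2. In hyperoxia at PND7 they were Male_HO_PND7 replicate 1 and Female_HO_PND7 replicate 2. At PND21 they were Male_RA_PND21 replicate 1 and Female_RA_PND21 replicate 1. Both at PND21 came from room air. Many of the member results are also given without these libraries.

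Levels are compared between members on this per-length scale. Myl7, the atrial regulatory myosin light chain, had a median of 80.7 over the 22 libraries. The cardiac actin Actc1 and the atrial essential light chain Myl4 both had a median of 59.9. Tnnt2 (cardiac troponin T, which ties the troponin complex to tropomyosin) followed at 35.4, Tnni3 (cardiac troponin I, the inhibitory subunit) at 22.5, Sln (sarcolipin, an inhibitor of the sarcoplasmic calcium pump) at 20.5 and Myh6 (the alpha cardiac myosin heavy chain) at 16.3. Pln (phospholamban, another inhibitor of the calcium pump) had a median of 1.35, Ryr2 (the calcium release channel of the sarcoplasmic reticulum) 0.597 and Nppa (the hormone atrial natriuretic peptide) 0.478. Neighbours in this order were not all distinct: Myl7 was above Actc1 in 15 of 22 libraries, Sln above Myh6 in 11 and Ryr2 above Nppa in 13, while Myl4 was above Tnnt2 and Myh6 above Pln in all 22.

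Each member spanned a wide range, and the same libraries were high or low for most of them. Myl7 at PND7 stood at 284 and 76.3 in males in room air, at 41.6, 401 and 66.3 in females in room air, at 104, 144 and 28.2 in males in hyperoxia, and at 109 and 70.5 in females in hyperoxia. At PND21 it stood at 127, 155 and 18.1 in males in room air, at 106, 66.9 and 85.1 in females in room air, at 105, 33 and 22.8 in males in hyperoxia, and at 91.3, 35.2 and 73.1 in females in hyperoxia. Libraries of 1 group thus differed by up to 9.64-fold (females in room air at PND7) and 8.57-fold (males in room air at PND21), and every oxygen, day and sex group overlapped the others it is compared with. Female_RA_PND7 replicate 2 held the highest value of 7 of the 10 members. Male_RA_PND7 replicate 1 was among the 3 highest libraries for 8 members, with a Krt13 value of 0.0676 and a Mylpf value (a fast skeletal muscle light chain) of 1.62. At the other end, Male_HO_PND7 replicate 3 was among the 3 lowest for 8 members, and Male_RA_PND21 replicate 3 and Male_HO_PND21 replicate 3 for 7 each. The 3 libraries that were among the 3 highest for 5 or more members were all in room air, and the 3 that were among the 3 lowest for 7 or more were all from males, of which 1 was in room air and 2 were in hyperoxia.

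**Figure D1:**
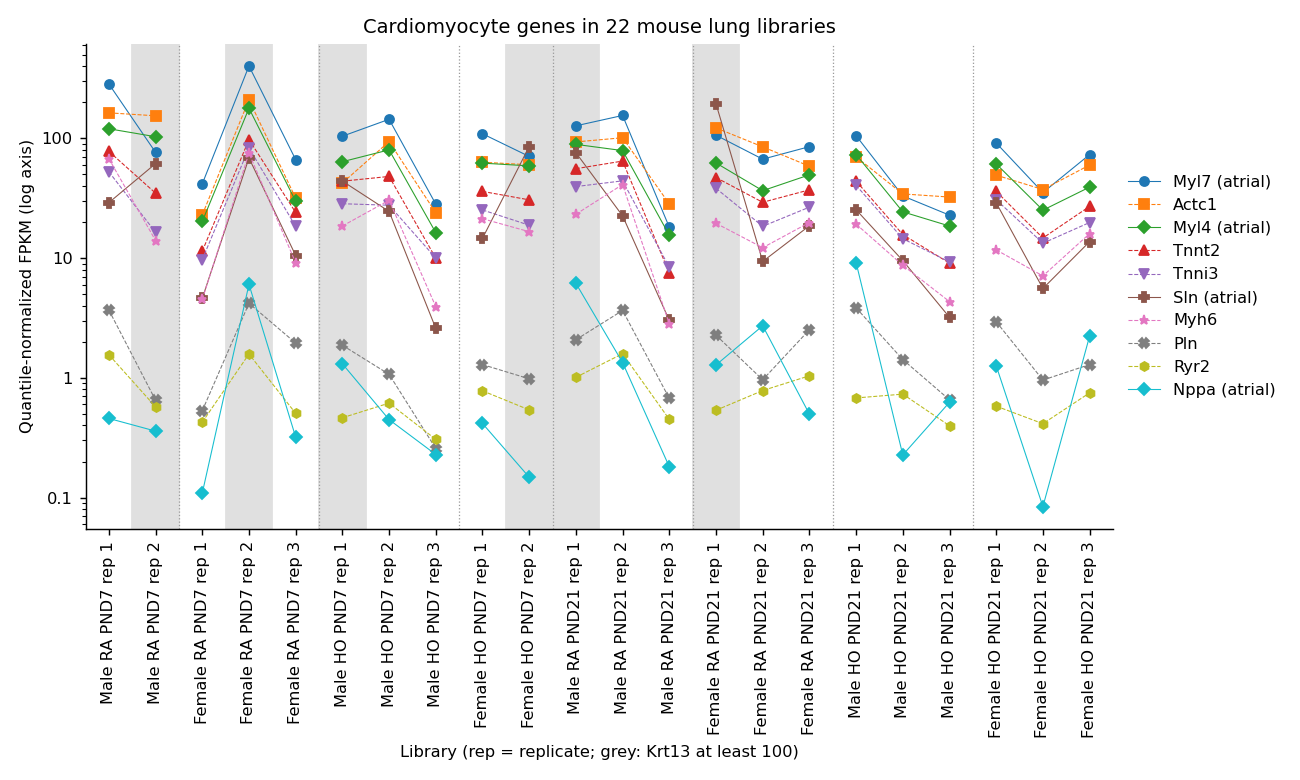
Quantile-normalized FPKM (log axis) of the 10 genes in each of the 22 libraries, ordered by group; solid lines mark atrial and dashed lines general cardiac genes, and the lines only join libraries of 1 group, whose order has no meaning. Grey bands mark the 6 libraries with a Krt13 value of at least 100; most genes rise and fall together from library to library, with Myl7 from 18.1 to 401.

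The spread within groups set these genes apart from most of the table. On the log2(value + 1) scale the residual standard deviation around the group means was 1.2 for Myl7, 1.29 for Myh6, 1.1 for Tnnt2, 1.04 for Myl4 and 1.75 for Sln, against a median of 0.16 over the 14200 genes tested. It lay above that of 97.8% of genes or more for 9 members (97.8% for Pln, 99.6% for Sln), and above that of 88.2% for Ryr2, which had a low level. All 22 libraries entered these values, and the spread was not computed without the 6 rich in Krt13. For Sln it includes the distance between those 6 (43.9 to 194) and the 16 others (2.59 to 29). The 8 groups accounted for 6.87% (Tnni3) to 35.2% (Actc1) of the variance of the members, and for 64.1% of that of the median gene.

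Across the 22 libraries the contractile genes followed Myl7 closely. Pearson's r with Myl7, on log2(value + 1), was 0.97 for Tnnt2 (Spearman's rho 0.98), 0.97 for Myh6 (rho 0.96), 0.95 for Tnni3 (rho 0.94) and 0.94 for Myl4 (rho 0.93). Each had a permutation p of 1e-05, the smallest that 100000 permutations can give, and an adjusted p of 2.2e-05 over the 11 relations computed. The value was 0.84 for Actc1 (rho 0.84), 0.77 for Ryr2 (rho 0.73), 0.77 for Pln (rho 0.74), 0.72 for Sln (rho 0.74) and 0.51 for Nppa (rho 0.59), with permutation p from 1e-05 for Actc1 to 0.0151 for Nppa (adjusted p = 0.0185; rho adjusted p = 0.00574). Without the 2 libraries farthest from the median of Myl7, r was 0.91 to 0.97 for Tnnt2, Myh6, Tnni3 and Myl4, 0.78 for Actc1, 0.71 for Ryr2, 0.72 for Pln, 0.66 for Sln and 0.35 for Nppa. In the 16 libraries with little Krt13, r was 0.98 for Tnnt2, 0.97 for Myl4, 0.96 for Myh6, 0.95 for Tnni3, 0.91 for Sln, 0.89 for Actc1 and 0.34 for Nppa. In the 6 with much Krt13 it was 0.98 for Tnnt2 and 0.99 for Myh6, but 0.57 for Actc1 and -0.08 for Sln. Myl7 itself had no relation that passed the test with Krt13 (r = 0.34, rho 0.27, permutation p = 0.128, adjusted p = 0.141) or with Mylpf (r = 0.31, rho 0.15, permutation p = 0.158, adjusted p = 0.158). The libraries share their groups and their normalization, so the r values describe them and are not independent support for one another.

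**Figure D2:**
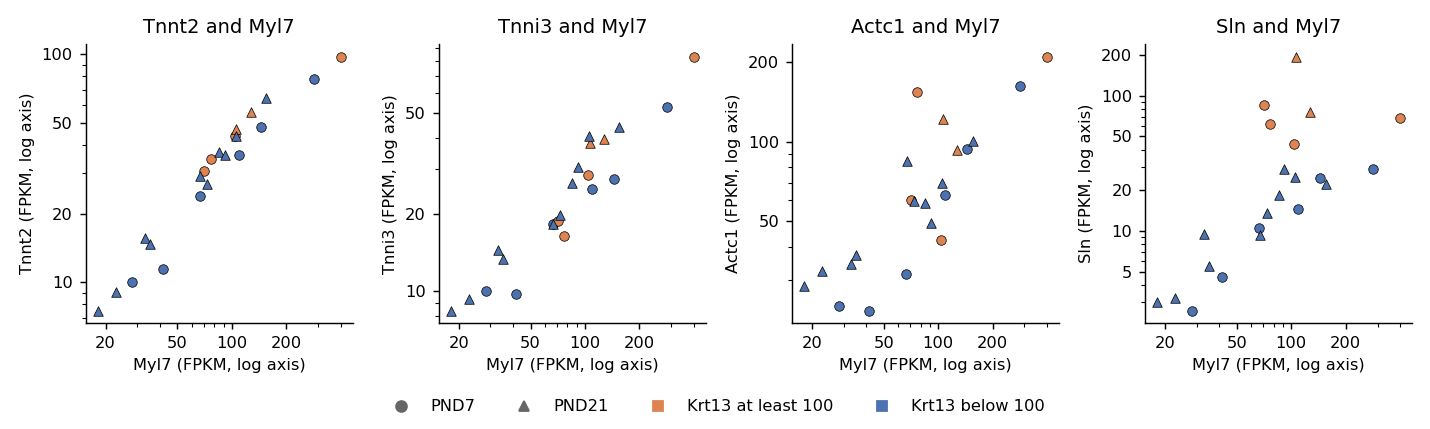
Tnnt2, Tnni3, Actc1 and Sln (FPKM, log axes) against Myl7 in the 22 libraries; circles are PND7, triangles PND21, orange marks a Krt13 value of at least 100. Tnnt2 and Tnni3 rise with Myl7 in both sets of libraries (r of at least 0.94), while the 6 orange points of Sln lie above the others, at 43.9 to 194.

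Because the members moved together from library to library, their upstream sequences are shown. Windows of 300 bases (250 before and 50 after the start site, RefSeq, GRCm38.p6) were at hand for 9 of the 10 members, in 10 windows, since Tnnt2 has 2; Sln had no entry. Both strands were searched for the GATA motif (TGATAA or AGATAA), the Nkx2-5 motif (TNAAGTG), the TEAD motif (CATTCC), the TATA box (TATAAA) and, by name, the MEF2 and SRF motifs. The SRF motif, the CArG box known from muscle promoters, was in 2 of the 10 windows (Myl7 and Actc1), against 1.63% of all 32851 windows. The GATA motif was in 4 of 10 (18.6% of all windows), the TEAD motif in 3 (14.7%), the TATA box in 4 (13.6%), the Nkx2-5 motif in 1 (11.5%) and the MEF2 motif in 0 (3.19%). The TATAAA matches are matches of letters at any position, and began at -219 (Pln), -9 (Nppa), 1 (Myh6) and 33 (Actc1) from the start site. The Myl7 window held a TEAD, an SRF and a GATA motif side by side, beginning 70, 61 and 42 bases before the start, with no overlap. The 150 bases before the start are printed 5′ to 3′ in the direction of the gene, with motifs in capitals, for Myl7 and Actc1 because they hold the SRF motif and for Nppa and Pln as members with weaker ties to Myl7 that hold a GATA motif (their capitals are the GATA motif and, in Nppa, also the TATA box).
Myl7, chr11:5898783-5898932, minus strand: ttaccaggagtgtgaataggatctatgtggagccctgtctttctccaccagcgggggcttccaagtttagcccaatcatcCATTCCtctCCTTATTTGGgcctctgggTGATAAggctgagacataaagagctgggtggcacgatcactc
Actc1, chr2:114052876-114053025, minus strand: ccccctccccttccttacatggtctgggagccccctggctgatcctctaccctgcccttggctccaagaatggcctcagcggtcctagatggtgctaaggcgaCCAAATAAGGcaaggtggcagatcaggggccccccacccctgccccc
Nppa, chr4:148000572-148000721, plus strand: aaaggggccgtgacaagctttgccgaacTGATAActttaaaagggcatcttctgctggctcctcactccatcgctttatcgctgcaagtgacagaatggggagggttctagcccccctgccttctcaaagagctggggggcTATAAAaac
Pln, chr10:53337536-53337685, plus strand: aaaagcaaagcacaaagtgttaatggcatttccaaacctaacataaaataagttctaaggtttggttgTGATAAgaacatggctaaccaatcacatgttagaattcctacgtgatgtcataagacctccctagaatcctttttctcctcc
A match is a description of these letters and shows no binding.

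In GENCODE M21 (GRCm38) the members lie on different chromosomes except Myl7 (chr11:5896637-5898782, 7 exons, minus strand) and Myl4 (chr11:104550663-104595753, 8 exons, plus strand), which share chromosome 11. Myh6 lies at chr14:54941921-54966927 with 39 exons, next to its paralog Myh7, and 22.6% of the 50-base runs in its longest coding transcript also occur in transcripts of other genes, chiefly Myh7. For Ryr2 the share was 0.0775%, and for the other 8 members it was 0.00%. The Myh6 values are therefore uncertain to the extent that reads could be split between the paralogs. The annotation places antisense genes over Myh6, Actc1, Myl4, Nppa, Pln and Ryr2, and whether counting used the strand is not given in the sources used here. It also places the protein-coding gene Dnaaf3 over Tnni3 on the same strand, and the part of Dnaaf3 in the Tnni3 values was not tested.

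The label of the set, pulmonary vein cardiomyocytes, was set beside markers of other heart muscle. The ventricular light chain Myl2 had a median of 0.257 and stood above 5 only in Female_HO_PND7 replicate 2 (53.1) and Male_RA_PND21 replicate 1 (55.8), both among the 6 libraries rich in skeletal muscle transcripts; slow skeletal muscle also makes Myl2. Irx4, a ventricular transcription factor, and Bmp10, a marker of right atrial muscle, were listed at 0 in all 22 libraries, and Nppb reached 0.205. Myl3, a ventricular and slow skeletal light chain, had a median of 4.82 and reached 182 in Female_RA_PND21 replicate 1. The remaining ventricular markers on the list were above 1 in all 22 libraries: Lbh at 101 to 185, Hey2 at 1.76 to 3.14 and Myh7 at 2.5 to 20.5. Which cells of the lung made them was not tested. Of the transcription factors of the cardiac lineage, Nkx2-5 never exceeded 0.457 (median 0.0752). Gata4 reached 2.47 in Female_RA_PND7 replicate 2, the library with the highest Myl7 value. Tbx5, which lung mesenchyme also expresses, stood at 14.8 to 28. These bulk values do not place the transcripts in the vein.

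Sarcolipin was the 1 member whose level was separated completely by Krt13. It stood at 61.4, 68.4, 43.9, 85.3, 75.8 and 194 in the 6 libraries, in the order given above, and at 2.59 to 29.0 in the other 16, so the sides did not overlap; of all genes tested, 1.02% were likewise higher in every one of the 6 libraries than in the 16. Sln is known from atrial and from skeletal muscle. Relative to Myl7, Sln was 0.171 to 1.83 in the 6 libraries (median 0.701) and 0.0918 to 0.316 in the 16 (median 0.158). In Female_RA_PND21 replicate 1 (ratio 1.83) and Female_HO_PND7 replicate 2 (ratio 1.21) the Sln level was higher than that of Myl7. The other atrial members overlapped between the sides: Myl7 was 70.5 to 401 against 18.1 to 284, Myl4 58.8 to 178 against 15.5 to 120, and Nppa 0.148 to 6.15 against 0.0842 to 9.16. So did the general cardiac members, for instance Myh6 at 14 to 75.1 against 2.82 to 67.5 and Tnni3 at 16.4 to 83.0 against 8.37 to 52.5. Actc1, which embryonic and regenerating skeletal muscle also expresses, was 42.3 to 210 in the 6 and 22.9 to 163 in the 16; its ratio to Myl7 reached 2.02 in Male_RA_PND7 replicate 2 against at most 1.56 in the 16. Myl4, made by embryonic skeletal muscle too, had its highest ratio to Myl7 (1.34) in that same library, against at most 0.855 in the 16. The ratios of Tnnt2 (0.243 to 0.456 against 0.274 to 0.476) and Myh6 (0.178 to 0.235 against 0.109 to 0.265) overlapped between the sides. The 18 skeletal muscle markers were all above 1 in at least 1 library, and their part in the Sln, Actc1 and Myl4 levels was not tested.

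Hyperoxia was compared with room air at each day as the mean of the sexes. At PND7 all 10 members had lower fitted values in hyperoxia, with log2 fold changes from -0.79 (Actc1) to -0.14 (Sln) and a median of -0.40, while the median over all genes was -0.01 and 51.6% of genes were negative. None of the 10 passed the test (limma on log2(value + 1), Benjamini-Hochberg adjusted p under 0.05 over all genes), and none had an unadjusted p under 0.05, in a contrast that called 23.4% of the genes tested and in which 5277 genes had an unadjusted p under 0.05. Myl7 changed by -0.60 (SE 0.70, 95% interval -2.07 to 0.87), an interval that spans lower and higher levels. Actc1 had a value of -0.79 (SE 0.52, interval -1.89 to 0.31, limma adjusted p = 0.285), the lowest of the adjusted p-values. At PND21 the 10 values were again all negative, from -1.07 (Sln) to -0.11 (Nppa and Pln), with a median of -0.51 against 0.01 for all genes, of which 47.0% were negative. Again limma called 0 of 10, none of them below 0.05 before adjustment, where 0.282% of all genes were called and 1640 genes had an unadjusted p under 0.05. Myl7 stood at -0.58 (SE 0.62, interval -1.90 to 0.73) and Sln at -1.07 (SE 0.91, interval -2.99 to 0.85). The 18 skeletal muscle markers had a median of -1.34 and the 11 squamous markers one of -1.24 at PND21, where both libraries rich in them were in room air, and -0.07 and -0.05 at PND7. Without the 6 libraries 8 of 10 members were negative at PND21, from -0.44 (Actc1) to 0.23 (Nppa), with Sln at 0.06 and Myl7 at -0.30, and the median was -0.21. At PND7 the values without them ran from -0.72 (Pln) to 0.05 (Nppa), with a median of -0.35 and Actc1 at -0.28. In both, 0 of 10 were called. Members rise and fall together by library, so 10 values of 1 sign are not 10 independent values. The 4 atrial members had medians of -0.39 at PND7 and -0.51 at PND21, and the 6 general cardiac members -0.40 and -0.51.

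**Figure D3:**
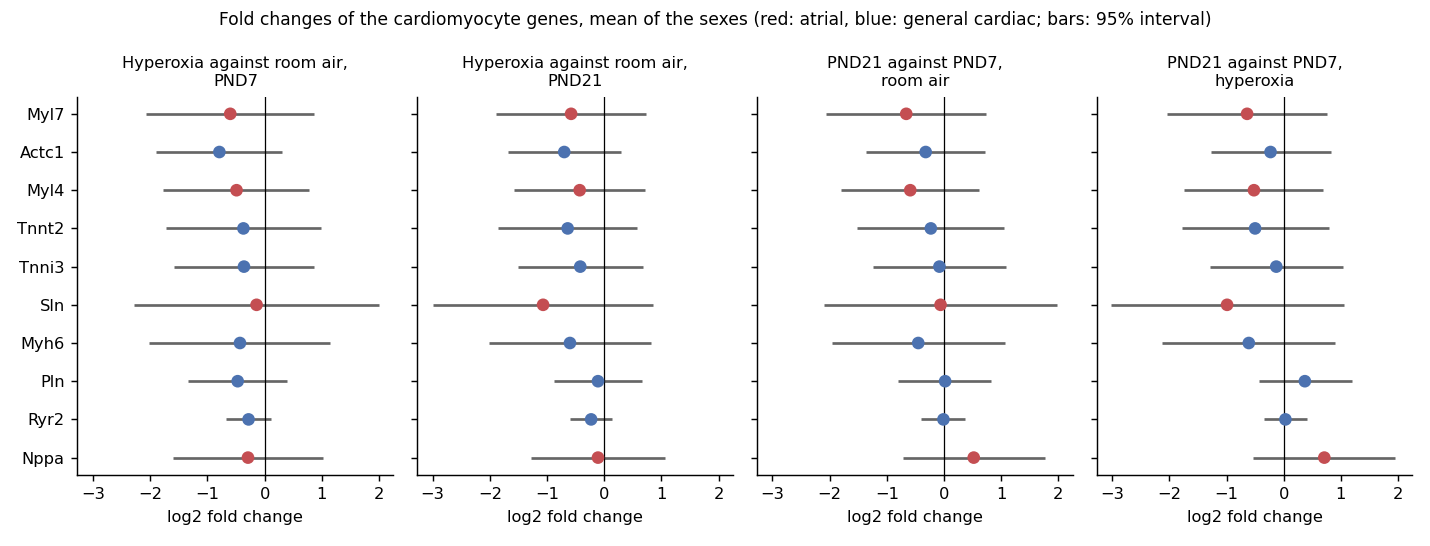
Log2 fold changes (x axis) of the 10 genes in the 4 contrasts averaged over the sexes, with 95% intervals from the limma fit; red points are atrial and blue points general cardiac genes. Every interval crosses 0, and the points of both oxygen contrasts lie to its left, from -1.07 to -0.11.

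The oxygen effect did not differ detectably between the days for any member: the difference of the effects ran from -0.93 (Sln) to 0.36 (Pln), and limma called 0 of 10 (none below 0.05 before adjustment either), against 10.5% of all genes, of which 3959 lay below 0.05 before adjustment. By sex, the males at PND7 held the largest differences. Actc1 stood at 163 and 154 in the 2 male room air libraries at PND7, and at 42.3, 93.8 and 23.9 in the 3 in hyperoxia, so these groups did not overlap. Its log2 fold change was -1.77 (SE 0.74, interval -3.32 to -0.22, unadjusted p = 0.0276), and it did not pass after adjustment (limma, adjusted p = 0.139). Actc1 in female libraries at PND7 overlapped between room air (22.9, 210 and 31.6) and hyperoxia (63.1 and 60.1), with a log2 fold change of 0.19 (SE 0.74). Myl4 also had separate male groups at PND7, at 120 and 103 in room air and 63.7, 80.0 and 16.3 in hyperoxia (log2 fold change -1.32, SE 0.86, limma adjusted p = 0.350). These were 2 of the 10 members, whereas 26% of all genes tested were lower in all 3 male hyperoxia libraries than in both male room air libraries, so nothing is read from that count. Without the 6 libraries, which leaves 1 male room air library at PND7, Actc1 stood at -1.75 (limma adjusted p = 0.218) and Myl7 at -2.13 in place of -0.96. In males at PND7, 0 of 10 members were called where 8.73% of all genes were, and 9 were negative with a median of -0.92 (10 negative, median -1.67, without the 6 libraries). In females at PND7, 0 of 10 were called where 5.81% of all genes were, and 5 were negative with a median of 0.02 (0 negative, median 1, without the 6 libraries, which leaves 1 female hyperoxia library). At PND21 the groups of all 10 members overlapped in both sexes; 0 of 10 were called in males (0.0211% of all genes) and 0 of 10 in females (0.0634%), with medians of -0.58 and -0.42 (-0.20 and -0.26 without the 6 libraries). Except for Actc1 in males at PND7, no member had an unadjusted p under 0.05 in these 4 contrasts.

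No member passed the test of a difference between the sexes in the response to oxygen. The female minus male effect at PND7 was 1.96 for Actc1 (SE 1.04, unadjusted p = 0.0762, limma adjusted p = 0.997), 2.59 for Sln (SE 2.04) and 0.72 for Myl7 (SE 1.40), with 0 of 10 called and 0.00% of all genes called, while 561 genes had an unadjusted p under 0.05. Of the 10 values 9 were positive, with a median of 0.86; without the 6 libraries all 10 were positive, from 0.36 to 4.04 with a median of 2.72, and again 0 were called, with 1 library left in the male room air and the female hyperoxia group. At PND21 it ran from -0.38 (Sln) to 0.27 (Myl7 and Myl4), with 0 of 10 called and none below 0.05 before adjustment, against 0.0141% of all genes called (-0.96 to 0.04 without the 6 libraries). Females against males within a condition gave 0 of 10 called in room air at PND7 (0.0423% of all genes), in hyperoxia at PND7 (0.0352%), in room air at PND21 (0.0634%) and in hyperoxia at PND21 (0.0634%). None of the members reached an unadjusted p under 0.05 there, and the largest difference was -1.54 for Actc1 in room air at PND7 (SE 0.74, interval -3.09 to 0.01). Without the 6 libraries the median difference moved to -2.03 in room air at PND7 (-0.63 with all libraries), 0.62 in hyperoxia at PND7 (0.23) and 0.39 in room air at PND21 (0.14), with 0 of 10 called in each. The intervals are wide, so these contrasts do not show that the sexes act alike.

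From PND7 to PND21 the members also did not pass the test, in a comparison where about every other gene did. In room air limma called 0 of 10, none of them below 0.05 before adjustment, against 49.4% of all genes; the values ran from -0.66 (Myl7, SE 0.66) to 0.52 (Nppa, SE 0.59), with a median of -0.16. In hyperoxia it called 0 of 10 against 55.4%, again none below 0.05 before adjustment, from -0.99 (Sln, SE 0.97) to 0.71 (Nppa, SE 0.59), with a median of -0.36. Without the 6 libraries 0 of 10 were called in either condition, with medians of -0.38 in room air and -0.20 in hyperoxia; Sln in hyperoxia stood at 0.00 in place of -0.99, and Myl7 in room air at -0.93 in place of -0.66. The atrial members had medians of -0.32 and -0.58, and the general cardiac ones -0.16 and -0.18.

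The proportions among several members spanned a narrower range than their levels: Tnnt2 per Myl7 spanned 1.96-fold over the 22 libraries and Tnnt2 itself 13-fold. Each member was divided by Myl7 within a library, a step chosen after the values had been seen. Over the 22 libraries Tnni3 spanned 9.92-fold and Myl7 22.1-fold, so their ratio can shift with the Myl7 level. The ratio was highest, at 0.462, in Male_RA_PND21 replicate 3, where Myl7 was lowest (18.1). The part of the Myl7 level in the day differences of the ratios was not tested. Tnni3 per Myl7 in room air stood at 0.185 to 0.278 at PND7 (median 0.215, n = 5) and at 0.275 to 0.462 at PND21 (median 0.312, n = 6), and the days overlapped slightly. In hyperoxia it was 0.192 to 0.354 at PND7 (median 0.266, n = 5) and 0.271 to 0.439 at PND21 (median 0.382, n = 6). The mean log2 ratio was higher at PND21 by 0.57 in room air (exact permutation test over libraries, two-sided, p = 0.00433, adjusted p = 0.0584 over 18 tests) and by 0.50 in hyperoxia (exact p = 0.0216, adjusted p = 0.0974). Pln per Myl7 was 0.00745 to 0.018 at PND7 and 0.0176 to 0.043 at PND21 in hyperoxia, a difference of 1.37 on the log2 scale (exact permutation p = 0.00649, adjusted p = 0.0584). In room air the difference was 0.75 (exact permutation p = 0.0671, adjusted p = 0.201). Pln itself reached 1 in only 14 of the 22 libraries and was as low as 0.257, so its ratios rest in part on low values. Tnnt2 per Myl7 was 0.243 to 0.456 at PND7 and 0.414 to 0.443 at PND21 in room air, a difference of 0.46 (exact permutation p = 0.0152, adjusted p = 0.0909). None of the 18 ratio tests passed after adjustment; the smallest p that 462 splits allow is 0.00216.

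A related question was put to the model over all genes, with log2(Myl7 + 1) of the library as a covariate, also added after the values had been seen. This fit estimates a slope on Myl7 for each gene, whereas a ratio takes each gene to change in proportion to Myl7. At equal Myl7, 2 members were called between PND7 and PND21 in room air, where 48.3% of all genes were: Tnni3 was higher at PND21 by 0.46 (SE 0.11, limma adjusted p = 0.00266) and Tnnt2 by 0.37 (SE 0.11, adjusted p = 0.0126). In hyperoxia 3 were called, where 54.2% of all genes were: Tnni3 by 0.39 (SE 0.11, adjusted p = 0.00759), Pln by 0.71 (SE 0.19, adjusted p = 0.00456) and Nppa by 1.13 (SE 0.42, adjusted p = 0.0324). Myl7 itself cannot be called in this fit, and the shares of calls among the other members were below those of all genes. With each of the 22 libraries left out in turn, Tnni3 kept its call in 22 of 22 fits in both conditions and Pln in 22 of 22 in hyperoxia. Tnnt2 lost its call without Male_RA_PND7 replicate 1, where its adjusted p was 0.0951, and Nppa lost its call in 5 of the 22 fits (without Male_HO_PND21 replicate 1, Male_HO_PND7 replicate 2, Female_HO_PND7 replicate 1 or 2, or Female_HO_PND21 replicate 3). In the 16 libraries with little Krt13, Tnnt2 was the 1 member called in room air (0.50, SE 0.10, adjusted p = 0.00272; 40.1% of all genes), while Tnni3 had 0.37 (SE 0.15, adjusted p = 0.0750). In hyperoxia Tnnt2 (0.27), Tnni3 (0.41), Sln (0.74) and Pln (0.83, adjusted p = 0.0100) were called, where 48.4% of all genes were. Myl7 as the reference is a choice: with Tnni3 as the covariate instead, Myl7 (-0.57, SE 0.13, adjusted p = 0.00151) and Myl4 (-0.51, SE 0.20, adjusted p = 0.0402) were lower at PND21 in room air (49.4% of all genes called), and Myl7 (-0.49) and Tnnt2 (-0.35) were lower and Pln (0.46) higher in hyperoxia (55.5% called). A ratio shows unequal change and not which of its genes changed. For oxygen, the fit with Myl7 as a covariate called 0 of the members other than Myl7 at PND7 (22.5% of all genes) and 0 at PND21 (0.218%).

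**Figure D4:**
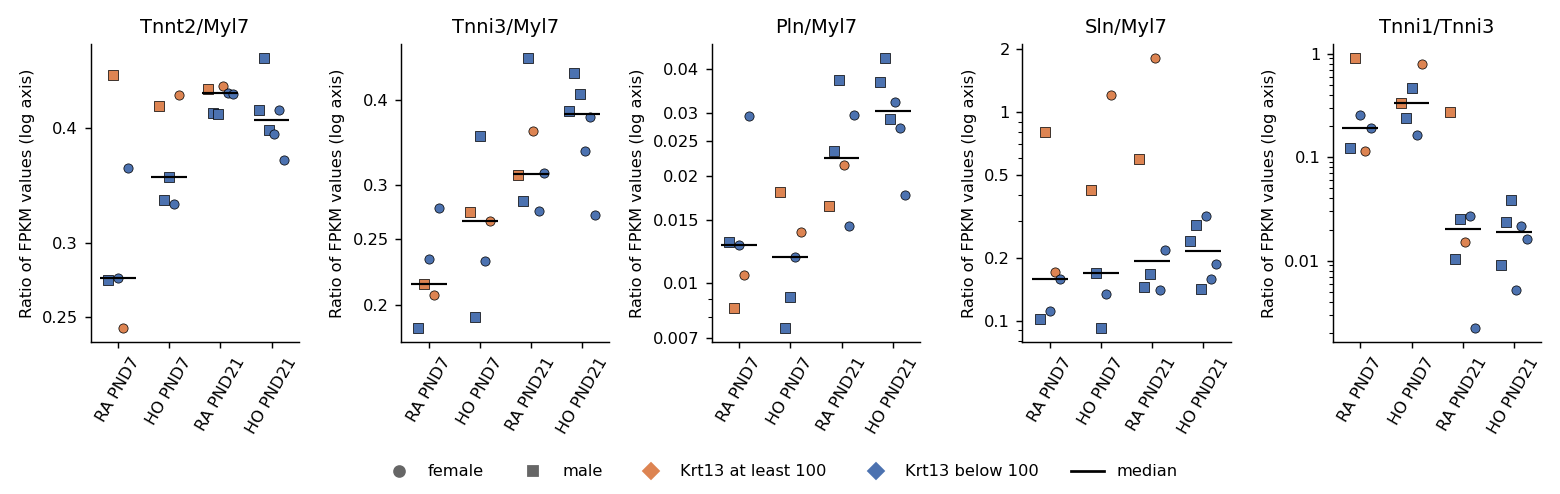
Ratios of FPKM values within a library (log axes) in room air (RA) and hyperoxia (HO) at PND7 and PND21; circles are females, squares males, orange marks a Krt13 value of at least 100 and bars are medians of 5 or 6 libraries. Tnni3 per Myl7 has medians of 0.215 and 0.266 at PND7 and 0.312 and 0.382 at PND21, Sln per Myl7 is high in the orange libraries, and Tnni1 per Tnni3 falls from PND7 to PND21.

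The fetal counterpart of Tnni3 fell with age. Tnni1, the slow skeletal troponin I that the heart expresses before and shortly after birth, fell by 2 on the log2 scale from PND7 to PND21 in room air (SE 0.48, limma adjusted p = 0.00218) and by 2.67 in hyperoxia (SE 0.48, adjusted p = 0.000167). Relative to Tnni3 it was 0.123 to 0.464 at PND7 (n = 6, median 0.214) and 0.00223 to 0.0385 at PND21 (n = 10, median 0.0189) in the 16 libraries with little Krt13, so the days did not overlap there. Tnni1 reached 1 in only 11 of the 22 libraries and was as low as 0.0595, so the lowest ratios rest on values near 0. In the 6 others it was 0.114 to 0.915 at PND7 and 0.0153 and 0.27 at PND21. Slow skeletal muscle also makes Tnni1, and the part of skeletal muscle in its level was not tested. At equal Myl7 its values were -1.84 in room air and -2.51 in hyperoxia in the 22 libraries, and -2 and -2.09 in the 16 (limma adjusted p = 6.55e-06 and 1.5e-06). The ratio of the heavy chains Myh7 to Myh6, whose reads may be split between them, overlapped between the days, at 0.0816 to 1.31 and 0.109 to 1.2 in the 16 libraries.

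Other genes of cardiac muscle were read from lists fixed by name; their counts of calls stand beside shares over all genes of 23.4% and 0.282% for oxygen at PND7 and PND21, and of 49.4% and 55.4% with age in room air and hyperoxia. Of 23 other sarcomere genes, 0 were called for oxygen at either day. From PND7 to PND21 in room air 1 was higher and 1 lower: Nebl, a Z-disc protein that other tissues also express, rose by 0.76 (SE 0.08, limma adjusted p = 5.86e-07) and Mybpc3, cardiac myosin-binding protein C, fell by 1.04 (SE 0.42, adjusted p = 0.0485). In hyperoxia Nebl rose by 0.88, and Mybpc3 (-1.05), Myh7 (-0.89) and Tpm1 (-0.72) fell. At equal Myl7, the values of Mybpc3 were -0.65 in room air and -0.67 in hyperoxia (limma adjusted p = 0.00383 and 0.00289). Of 13 tested calcium handling and excitation genes, 1 fell in hyperoxia at PND7, the calcium channel subunit Cacna1c (-0.43, adjusted p = 0.00258), which smooth muscle also expresses, and 0 were called at PND21. With age in room air Popdc2, a cyclic AMP binding protein of striated muscle, rose by 0.73 (SE 0.24, limma adjusted p = 0.0178) and Tecrl by 0.37. In hyperoxia 1 of the 13 rose with age and 2 fell: Jph2 (-0.41) and Gja5 (-0.52), a connexin that arterial endothelium shares with atria. Of 10 tested genes of cardiac energy metabolism, Fhl2, which smooth muscle also makes, fell with age by 1.63 in room air and 1.82 in hyperoxia, and 0 were called for oxygen. Of 12 tested cardiac transcription factors 4 fell in hyperoxia at PND7: Nr2f1 (-0.67), Tbx5 (-0.43), Mef2a (-0.39) and Tbx3 (-0.37), which are not restricted to muscle. At PND21 0 of 12 were called. With age in room air 5 fell, Myocd (-0.87) by the most, and Mef2a rose (0.31). In hyperoxia Mef2a (0.62) and Tbx3 (0.29) rose with age, and Myocd (-0.68) and Gata6 (-0.24) fell. Of 8 smooth muscle markers, whose summed level was 564 to 1144 at PND7 and 254 to 483 at PND21, 2 fell in hyperoxia at PND7 (Synpo2, -0.42, and Smtn, -0.34), as Cacna1c did, and their part in it was not tested. With age 5 of the 8 fell in room air, and 6 fell and 1 rose in hyperoxia; this moves with the fall of Myocd, Fhl2 and Tpm1, and its part in them was not tested.

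The genes whose pattern was most like that of the members were ranked over all genes tested. Over the 22 libraries, Pearson's r with the mean z-score of the members was highest for Mybphl (0.94), a myosin-binding protein H-like protein of atrial muscle that ranged from 0.69 to 12.3. It was followed by Atp2a2 (0.91), the sarcoplasmic calcium pump that Sln and Pln inhibit, Kcnj3 (0.88) and Kcnj5 (0.82), which form the acetylcholine-gated potassium channel of atria, Tnnc1 (0.87), cardiac troponin C, and Mapk10 (0.84). Csrp3, Myoz2, Tnni3k, Dhrs7c, Rbm20, Casq2, Mylk3, Mybpc3 and Lmod2 completed the first 15, at 0.80 to 0.73. Of these, Myoz2 was separated by Krt13, at 9.35 to 29.3 in the 6 libraries with much Krt13 and 0.652 to 8.99 in the 16 others. The rest of the 15 overlapped between the sides, for instance Casq2 at 5.86 to 25.6 against 1.02 to 8.18 and Mybphl at 1.41 to 12.3 against 0.69 to 8.44. The ranking was not repeated without the 6 libraries. After the group means were taken away, Tnnc1 (0.96), Mybphl (0.95), Popdc2 (0.92), Atp2a2 (0.91), Mybpc3 (0.91), Cytl1 (0.89), Kcnj3 (0.89), Mapk10 (0.89) and Kcnj5 (0.88) led, and Csrp3, Ndrg4, Ddo, Gm1078, Tbx20 and Sorbs2 followed at 0.84 to 0.81. Atp2a2 is expressed in many cells and varied only from 48.9 to 101, whereas Tnnc1 ranged from 4.09 to 69.1. These are the closest of 14200 genes by rank and carry no test. Relative to Myl7, Tnnc1 was 0.116 to 0.429 and Mybphl 0.0185 to 0.0618 over all 22 libraries.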

How the data were processed

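Per the submitters' processing notes, reads were handled with TopHat2 2.0 and Cufflinks 2.0 on mm10; the deposited table holds quantile-normalized FPKM for 22520 genes in 22 libraries, and the unit rests on those notes and on the values. Library columns were matched by title, and groups come from the labelled sex, oxygen status and day. Replicate numbers follow accession order and pair nothing. The main test was limma 3.58.1 (R 4.3.3) on log2(value + 1): genes reaching 1 in 2 or more libraries (14200), a linear model on the 8 groups, empirical Bayes with an intensity trend, 15 contrasts and Benjamini-Hochberg adjustment within each contrast (called under 0.05). The script was tested on simulated data. Fold changes understate those of low genes because of the added 1. Correlations used 100000 permutations and day ratios an exact permutation test. Alternatives were another pseudocount (0.1), no filter, no trend, library weights, robust moderation, rescaling, Krt13 or Mylpf as covariates, subsets of groups and leaving out libraries; covariates Myl7 and Tnni3 were added after seeing the data. The text names all members, in each list the genes with the smallest adjusted p (4 at most) per contrast, a fixed set of markers, and the 15 genes nearest in pattern. Members and lists were chosen with earlier results of these data known. Perm1, Acta1, Ackr1, Ptcra and Snorc were not analysed here. Depth is unknown, so no counting error is given.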

Additional observations from a re-analysis of the deposited data

How the results depend on the processing

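With 10 other settings and with each of the 22 libraries left out in turn, 0 of 10 members were called in each of the 7 main comparisons. Of the 4790 member fold changes under these 32 alternatives 0 were called, and 321 had another sign than the reported value. For Myl7 the oxygen value ranged from -1.07 to -0.12 at PND7 and from -1.06 to -0.31 at PND21 with 1 library left out. In fits of only the groups compared, Nppa or Ryr2 fell below the filter for 10 values in 7 contrasts. Covariates added after seeing the data moved the day comparisons: the members called were 2 (room air) and 3 (hyperoxia) with Myl7, 2 and 3 with Tnni3, and 1 and 4 with Myl7 in the 16 libraries with little Krt13. With Myl7, Tnnt2 in room air turned from -0.23 to 0.37 (0.50 in the 16 libraries) and Tnni3 from -0.08 to 0.46. In hyperoxia Tnni3 turned from -0.13 to 0.39 (0.41 in the 16). Within the 16 libraries, Tnnt2 in hyperoxia moved from -0.39 without the covariate to 0.27 with it, and Sln from 0.00 to 0.74. In all 22 libraries without a covariate these genes stood at -0.50 and -0.99, so leaving out the 6 libraries alone took Sln to 0.00. These fits take away the library's own Myl7 or Tnni3 level by construction, so the gene used as the covariate cannot be called in its own fit. Actc1 in males at PND7 was called with Tnni3 as the covariate (-1.36, limma adjusted p = 0.0430) and not with Myl7 (-1.14, adjusted p = 0.0644, and -0.46, adjusted p = 0.505, in the 16 libraries). Counts over all genes depended more on the setting: 3328 genes were called for oxygen at PND7 (1680 to 5063 over the alternatives), 40 at PND21 (18 to 2557), 1498 for the difference between the days (711 to 3969), 1240 in males at PND7 (143 to 5532) and 825 in females at PND7 (31 to 1119). For oxygen at PND21 the range was 0 to 309 in males (3 reported) and 0 to 4007 in females (9), and for the sex difference in response 0 to 39 at PND7 (0) and 0 to 931 at PND21 (2). Females against males ranged from 4 to 62 in hyperoxia at PND7 (5), 4 to 101 in room air at PND21 (9) and 4 to 1086 in hyperoxia at PND21 (9). Where leaving out libraries left 1 in a group, that library was assumed to vary like the other groups. No paired analysis was possible because the labels give groups no shared replicate numbers. Groups of 2 or 3 libraries and members that vary within groups limit what could be detected. For Nppa and Ryr2, and for Pln and Tnni1 in part of the libraries, so do values near or below 1.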

Other observations

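Of 5 tested markers of venous endothelium, 3 rose (Slc6a2, Vwf and Vcam1) and 1 fell (Nr2f2, -0.42) from PND7 to PND21 in room air, where 49.4% of all genes were called, and 2 rose in hyperoxia (Slc6a2 and Vwf), where 55.4% were. Slc6a2, a noradrenaline transporter that lung endothelium expresses, ranged from 1.21 to 11.9, rose from PND7 to PND21 by 1.29 on the log2 scale in room air (SE 0.16, limma adjusted p = 3.38e-06) and by 1.72 in hyperoxia (SE 0.16, adjusted p = 1.16e-07), and fell by 0.77 in hyperoxia at PND7 (SE 0.17, adjusted p = 0.00380). Vwf, the clotting factor of endothelium, rose with age by 0.63 and 0.46. In hyperoxia at PND7 2 of the 5 fell (Slc6a2 and Ephb4, -0.36), where 23.4% of all genes were called, and at PND21 limma called 0 of the 5, where 0.282% of all genes were called.

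Among the natriuretic peptides, Nppc, which endothelium makes, rose in hyperoxia at PND7 by 1.04 (SE 0.18, limma adjusted p = 0.000762) at a low level of at most 2.27, while Nppa, the peptide of atrial muscle, had a value of -0.29 (SE 0.62). In hyperoxia Nppc fell from PND7 to PND21 by 1.28 (adjusted p = 6.34e-06).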
